A study of Mus musculus with 12 samples.

Results

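Expression of 9 complement genes, C2, C3, C4b, C6, C8a, C8b, C9, Cfb and Cfi, was followed in mouse blood after injury. They were taken by gene symbol, as components that liver or connective tissue makes, from a table of 37583 genes, and all 9 symbols were found in it. The libraries came from wild-type mice that had received a combined burn and tendon cut (burn/tenotomy), the treatment given to every animal, and were drawn in 3 time groups of 4, called 6h, Day1 and Day7 after their time since injury. The blood had been enriched on a microfluidic sorter (iChip), and its total RNA was sequenced. The source is named as blood cells together with cMPCs, the circulating cells that the study follows for a signature of heterotopic ossification (HO), the growth of bone in soft tissue. An uninjured group was not analysed here, so the 6h libraries are the earliest point and no baseline. The sources used here give no strain, age or sex of the mice, and do not say how libraries map to animals. P-values measure the spread between these libraries, part of which may be technical.

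Complement is a set of plasma proteins that tag microbes and damaged cells, recruit leukocytes and punch holes in membranes. The classical and lectin routes cleave C4 and C2, whose fragments form an enzyme that splits C3, and the alternative route builds a second such enzyme from C3 and factor B, the product of Cfb. C3 fragments then lead to assembly of C5, C6, C7, C8 and C9 into the membrane attack complex, and factor I, the product of Cfi, cuts C3 and C4 fragments to switch the cascade off. Hepatocytes make most of the plasma pool, while fibroblasts, mesothelial cells and macrophages make some of the early components.

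Values are reads per gene scaled by the authors to an effective library size, called deposited values below. The libraries held 5098395 to 12379041 reads, of which haemoglobin genes took 16.1% to 70.3%, and 7631 to 16647 genes had at least 1 read. Of 16 hepatocyte markers, 4 to 15 had reads in 6h libraries, 14 to 16 in Day1 libraries and 12 to 16 in Day7 libraries, and their summed value ran from 4.54 to 318, from 1907 to 6478 and from 150.4 to 29162. Of 14 markers of stromal fibroblasts, 7 to 12, 13 to 14 and 9 to 11 had reads in 6h, Day1 and Day7 libraries, with summed values of 46.6 to 2156, 433 to 2936 and 21.6 to 716. Dcn, Col1a1 and Col3a1 had reads in every library, whereas Pdgfra was at 0 in 7 of 12 libraries and Prrx1 in 6. Both marker sets named by the choice of genes were thus present, at levels that differed widely within each time group. Y-linked genes had reads in 5 libraries, 6h replicates 3 and 4 and Day1 replicates 2, 3 and 4, and in no Day7 library, so the libraries of the 6h and Day1 groups did not all come from 1 and the same animal. Comparisons of Day7 with the other times therefore cannot be separated from that difference except through a model term. The mean log2(value + 1) of 12 stromal genes was 4.73 to 6.16 in those 5 libraries and 0.97 to 3.83 in the 7 without. Such a term therefore also follows the stromal level, and the 2 cannot be told apart.

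C3 was by far the most abundant of the 9 genes, and its level spanned the widest range. The deposited value of C3, the protein on which every activation route converges, was 240.1, 1.51, 729.8 and 363 in 6h replicates 1 to 4, 199.4, 813, 720.4 and 1005 in Day1 replicates 1 to 4, and 376, 50.3, 27.8 and 241 in Day7 replicates 1 to 4. The 3 groups overlapped, with 6h replicate 2, at 4 reads, far below the others, and with 3 Day1 libraries and 6h replicate 3 at the top. Group means were 334 ± 304, 684 ± 344 and 174 ± 165 at 6h, Day1 and Day7 (SD, n = 4 each). On the log2(value + 1) scale the fitted Day1 minus 6h difference was 2.38 (SE 1.26) and the Day7 minus Day1 difference -2.44 (SE 1.26), with limma adjusted p of 0.48 and 0.196, so neither exceeded the spread between replicates. In such bulk samples, fewer cells of a type and less RNA per cell cannot be told apart. Divided by gene length, C3 stood at 132 ± 66.2 per kilobase at Day1 (SD, n = 4), and the next member there was C4b at 13.4 ± 6.80 per kilobase (SD, n = 4). C3 is also an acute phase gene, and its promoter is shown because it holds the classic binding sequence of C/EBP factors. The 250 bases before its start in RefSeq (GRCm38.p6, chr17:57228137-57228386, minus strand) read as follows, with the match to TTGCNNAA in capitals.
C3: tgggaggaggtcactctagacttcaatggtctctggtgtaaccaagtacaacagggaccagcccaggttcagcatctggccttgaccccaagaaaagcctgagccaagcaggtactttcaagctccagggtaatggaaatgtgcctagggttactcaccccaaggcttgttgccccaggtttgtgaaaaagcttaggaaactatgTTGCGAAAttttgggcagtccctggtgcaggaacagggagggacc
The capitals cover positions -45 to -38 counted from the gene start. TTGCNNAA, searched on both strands, occurs in 9.56% of 32851 mouse promoters of that length, and a match is a description of the sequence only.

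C4b and C2, which together form the C3-cleaving enzyme of the classical and lectin routes, resembled C3 only in part. In 6h replicate 1, C3 was within the Day1 range at 240.1, whereas C4b and C2 lay below each Day1 library. C4b had deposited values of 3.92, 0, 113.9 and 48.4 in 6h replicates 1 to 4, 31.9, 78.6, 67.7 and 125.1 at Day1, and 102.8, 2.49, 2.47 and 45.2 at Day7. All Day1 libraries held C4b, and at 6h and Day7 the libraries split into pairs of high and low values that crossed the Day1 range. C2 had 0.934, 0, 56.0 and 30.7 at 6h, 12.2, 51.7, 60.7 and 73.6 at Day1, and 8.46, 0, 0 and 9.98 at Day7. Each Day7 library thus lay below each Day1 library for C2, while 6h replicates 3 and 4 lay within the Day1 range.

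The Day7 minus Day1 difference of C2 was -3.73 (SE 1.15, limma adjusted p = 0.0529), the closest of any member to the threshold of 0.05 but not past it. Over the alternative settings its adjusted p ran between 0.00634 and 0.716. It passed when any 1 of the 4 6h libraries or Day7 replicate 1 was left out, with values down to 0.0324 without Day7 replicate 1, and left-out Day1 or Day7 libraries moved it as high as 0.134. With a term for Y-linked reads the difference was -0.90 (limma adjusted p = 0.716). Libraries with Y-linked reads were also those with the highest stromal means, so the term does not isolate Y-linked status. At 6h, C2 was at 56.0 and 30.7 in the libraries with Y-linked reads and at 0.934 and 0 in those without, and the part of that status in the result was not tested. For C4b the Day7 minus Day1 difference was -2.15 (SE 1.22, limma adjusted p = 0.241). The Day1 minus 6h differences were 2.46 (SE 1.15) for C2 and 2.42 (SE 1.22) for C4b, with limma adjusted p of 0.436 and 0.456. Reads of both genes carry an uncertainty of identity. In the GENCODE annotation of GRCm38, a later build than that of the deposited table, 46.9% of the exonic bases of C2 are shared with the overlapping locus Gm20547 or, on the opposite strand, Zbtb12. Of 50-base windows of the C4b transcript, 35.2% also occur in its near copy C4a, which had 38 reads over all libraries.

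Cfb, the alternative-route counterpart of C2, was barely detected. It had 4 reads at 6h, all in replicate 3 (0.966), 13 reads at Day1 (0.371, 0.220, 0 and 0.117 in replicates 1 to 4) and 14 reads at Day7, all in replicate 1 (0.963). These 31 reads did not meet the minimum of 1 in at least 4 libraries, so Cfb was not tested. In the same annotation 79.5% of its exonic bases are shared with Gm20547, which had 0 reads in the table, and the sources used here do not say whether reads in shared bases were counted. Cfd, the protease that activates factor B and comes largely from fat, was present at 60.7, 0, 8.69 and 63.1 in 6h libraries, 11.99, 15.7, 5.54 and 9.34 in Day1 libraries, and 287, 8.80, 32.7 and 113.1 in Day7 libraries. Cfp, the stabiliser properdin made by leukocytes, had reads in every library. Both were picked for mention after their values were seen. Among the 3 tested genes of the alternative route, C3 included, none passed the test in any comparison.

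Cfi, the off switch of the cascade, was at 0, 0, 0 and 4.68 in 6h replicates 1 to 4, 14.8, 17.96, 0.910 and 53.5 at Day1, and 177, 1.15, 1.23 and 29.3 at Day7. It was read in a single 6h library but in all later ones, and Day7 replicate 1 alone held 2577 of the 2673 Day7 reads. The Day1 minus 6h difference was 3.11 (SE 1.22, limma adjusted p = 0.368) and the Day7 minus 6h difference 3.04 (SE 1.22, limma adjusted p = 0.189), neither past the threshold. Between Day7 and Day1 the fitted difference was -0.07 (SE 1.22, limma adjusted p = 0.977), with a sign that turned under several settings.

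**Figure D1:**
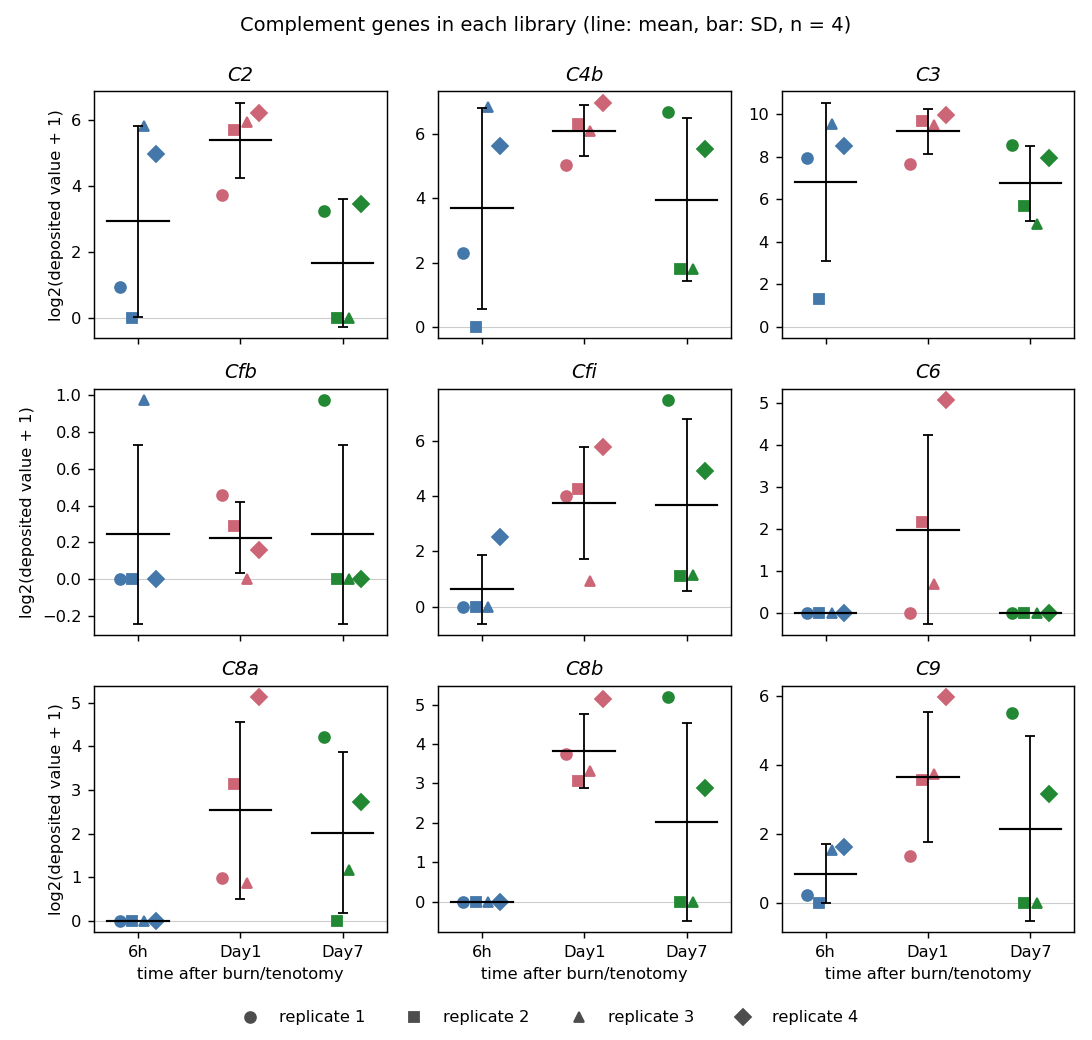
Deposited value on a log2(value + 1) axis of each complement gene in 6h, Day1 and Day7 libraries, with a marker shape for each replicate number and a line and error bar for the mean and SD of these log2 values (n = 4). C8a and C8b lie at 0 in all 4 6h libraries and above 0 in all 4 Day1 libraries, C2 lies lower in each Day7 than in each Day1 library, and Cfb stays below 1 throughout.

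Of the terminal components, C8a and C8b had no read in any 6h library and reads in every Day1 library. They encode chains of C8, the component that inserts into the membrane before C9. C8b stood at 12.5, 7.41, 8.87 and 34.6 in Day1 replicates 1 to 4, against 0 in all 6h libraries, and at 35.8, 0, 0 and 6.32 in Day7 replicates 1 to 4. C8a stood at 0.989, 7.85, 0.834 and 34.1 in Day1 libraries, against 0 in all 6h libraries, and at 17.6, 0, 1.23 and 5.65 in Day7 libraries. The Day1 and 6h groups did not overlap in C8b. For C8a the deposited values did not overlap either, but Day1 replicates 1 and 3 lay below 1.14, the value that 3 reads have in 6h replicate 2, so at that depth a separation was not shown. Both genes had Day7 libraries at 0 as well as Day7 libraries within or, for C8b in replicate 1, just above the Day1 range.

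A count of 0 over the 4 6h libraries allows a value of up to 0.104 (3 reads over the group). Against that floor, pooled reads of Day1 libraries put C8b at least 163.7-fold higher and C8a at least 139.6-fold higher than in 6h libraries. Those bounds came to 82.1 and 48.6 without Day1 replicate 4, and to 69.0 and 58.8 without 6h replicate 4. The Day7 bounds against 6h were at least 212-fold for C8b and 108.3-fold for C8a, both 18.5 without Day7 replicate 1 and 89.4 and 45.6 without 6h replicate 4. Floors and intervals cover counting error only. In limma the Day1 minus 6h difference was 3.82 (SE 0.99, adjusted p = 0.13) for C8b and 2.54 (SE 0.95, adjusted p = 0.34) for C8a, and such fitted values depend on the pseudocount and are no bounds. Without Day7 replicate 1, C8b passed the limma threshold for Day1 versus 6h (adjusted p = 0.0276), and over all settings its adjusted p ran from 0.000257 to 0.402. Per kilobase of gene, C8b exceeded C8a in 6 of the 7 libraries with reads of either.

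C9, the pore-forming subunit that polymerises at the end of the cascade, was at 0.187, 0, 1.93 and 2.10 in 6h replicates 1 to 4, 1.61, 10.8, 12.5 and 62.1 at Day1, and 44.5, 0, 0 and 7.98 at Day7. Unlike C8a and C8b it had reads in 3 of the 4 6h libraries, and Day1 replicate 1 lay within the 6h range. Its Day1 minus 6h difference was 2.81 (SE 1.12, limma adjusted p = 0.371), and its Day7 minus Day1 difference -1.50 (SE 1.12, limma adjusted p = 0.38).

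C6, which joins C5b to start the attack complex, was read only at Day1, at 0, 3.42, 0.607 and 32.5 in replicates 1 to 4, and 835 of its 952 reads came from replicate 4. Pooled over a group, this was at least 116-fold higher in Day1 than in 6h libraries, and 21.2 without Day1 replicate 4 or 48.9 without 6h replicate 4. It was not tested, having reached 1 in fewer than 4 libraries. The 3 libraries with C6 reads were among the 5 with Y-linked reads, and all 7 libraries without Y-linked reads had no C6 read. Day7 replicate 1 belongs to those 7 and had no C6 read at a C8b value of 35.8 and a C9 value of 44.5, against 34.6 and 62.1 in Day1 replicate 4. The part of Y-linked status in the presence of C6 was not tested.

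Promoter sequence was available for C6 and for the C8a, C8b and C9 genes, whose levels ran together across the libraries, and the sequences of that set are shown for this reason. The 250 bases before each start in RefSeq (GRCm38.p6) are given with motif matches in capitals, for C8a at chr4:104876399-104876648 on the minus strand, for C8b at chr4:104766067-104766316 on the plus strand and for C9 at chr15:6445096-6445345 on the plus strand.
C8a: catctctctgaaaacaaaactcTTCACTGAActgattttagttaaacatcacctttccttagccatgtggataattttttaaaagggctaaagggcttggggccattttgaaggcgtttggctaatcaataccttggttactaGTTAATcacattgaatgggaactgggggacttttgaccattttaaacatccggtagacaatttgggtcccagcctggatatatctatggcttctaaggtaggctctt
C8b: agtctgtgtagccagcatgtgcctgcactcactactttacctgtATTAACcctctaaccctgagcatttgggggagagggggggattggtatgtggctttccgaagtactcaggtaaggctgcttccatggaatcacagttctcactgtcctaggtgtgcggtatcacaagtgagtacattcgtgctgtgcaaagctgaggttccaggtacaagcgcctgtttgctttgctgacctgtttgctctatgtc
C9: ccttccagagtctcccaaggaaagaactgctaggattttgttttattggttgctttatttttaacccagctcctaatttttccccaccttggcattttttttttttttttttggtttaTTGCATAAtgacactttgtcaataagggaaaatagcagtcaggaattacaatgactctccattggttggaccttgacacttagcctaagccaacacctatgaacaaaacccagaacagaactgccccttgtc
Capitals mark GTTAAT, a core sequence of HNF1, a liver factor, in C8a (-107 to -102) and on the opposite strand in C8b (-206 to -201). They also mark TTCNNNGAA, the STAT sequence, in C8a (-228 to -220) and TTGCNNAA in C9 (-132 to -125), and none of these matches overlapped. GTTAAT occurs in 6.43% and TTCNNNGAA in 7.02% of the 32851 promoters, both strands searched. The consensus of NF-kB, present in 3.90% of promoters, was not in the 250-base windows of C3, C6, C8a, C8b or C9, and C6 held none of the 4 motifs searched.

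Across all genes, limma called 0.169% of 11211 for Day1 versus 6h, and 0 of the 7 tested complement genes. All 7 fitted differences were positive, with a median of 2.54 against 0.52 over all genes tested. C8a and C8b entered the test through their later libraries and could not have come out lower, and with these 2 at their pooled bounds the median was 2.81. At an unadjusted p under 0.05 limma gave 5 members, beside 11.2% of all genes, and edgeR 4, beside 6.65%. Both counts hold C8a and C8b, which were at 0 in every 6h library, so nothing is read from either count. After adjustment edgeR also called 0 members, beside 0.0803% of genes. Deposited values were higher without overlap for 2 of 7 members, C8a and C8b, and for 5.52% of all genes, and nothing is read from that count, since these members were at 0 in every 6h library and entered the test through later ones. DESeq2 on the recovered reads called these same genes, at a background of 1.51% of genes called higher, and nothing is read from that count for the same reason.

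For Day7 versus Day1, limma called 5.78% of genes and 0 of 7 members. All 7 fitted differences were negative, with a median of -1.80 against -0.48 over all genes. At an unadjusted p under 0.05 limma and edgeR each gave 1 of 7 members, beside 29.1% and 21.3% of all genes, and nothing is read from 1 gene. After adjustment edgeR called 0 members, beside 0.00892% of genes. C2 alone was lower without overlap, 1 of 7 beside 14.5% of all genes, and it was the member that DESeq2 called lower, beside 11.2% of genes. With a term for Y-linked reads, 5 of the 7 differences were positive, those of C3, C4b, C8a, C9 and Cfi, at 0.10 to 0.49, so their direction is not settled here.

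For Day7 versus 6h, limma called 0.883% of genes and 0 of 7 members, with 5 positive differences and a median of 1.31, the same with C8a and C8b at their bounds, against 0.13 over all genes. At an unadjusted p under 0.05 limma gave 2 members, beside 18.02% of all genes, and edgeR 4, beside 15.4%. After adjustment edgeR called 0 members, beside 0.749% of genes. DESeq2 called C8a, C8b and Cfi higher, beside 2.49% of genes. C8a and C8b were at 0 in every 6h library and Cfi in 6h replicates 1 to 3, and all of them entered the test through later libraries. Nothing is therefore read from counts against 6h that hold these genes. The 3 comparisons share libraries, so their results are not independent of one another. Scaling to all reads in place of the deposited scale moved the median of all genes by 1.04, -1.30 and -0.32 for Day1 versus 6h, Day7 versus Day1 and Day7 versus 6h. On that scale 3 members were called for Day1 versus 6h (C8a, C8b and C9, beside 10.7% of genes called higher) and 4 for Day7 versus Day1 (C2, C3, C4b and C8b, beside 35.3% called lower). Relative to the median of all genes, C8b differed by 3.30 on the deposited scale and 3.29 on the scale of all reads for Day1 versus 6h, and C2 by -3.25 and -3.26 for Day7 versus Day1. C3 moved more between these scales, from -1.96 on the deposited scale to -2.78 on the scale of all reads for Day7 versus Day1.

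**Figure D2:**
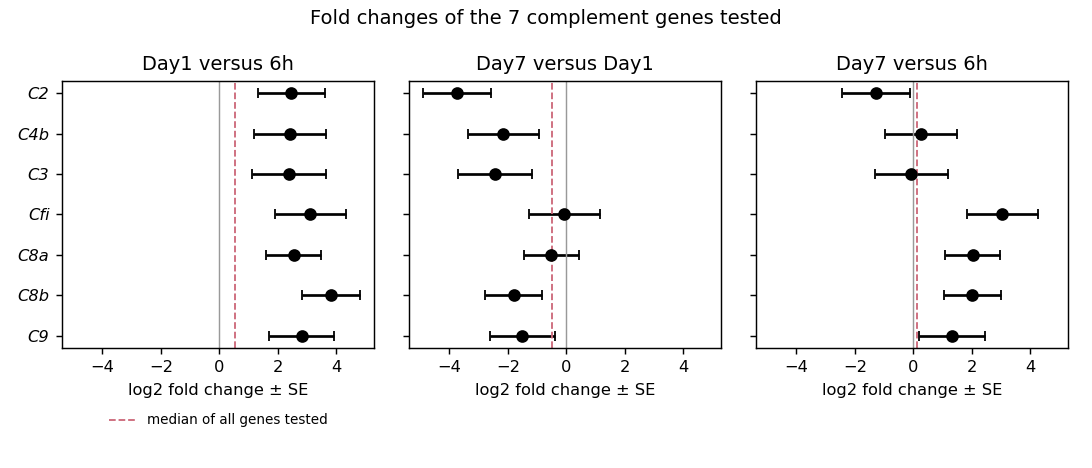
Fitted log2 difference with its standard error for the 7 tested complement genes in the 3 comparisons, with the median of all 11211 genes as a line. Differences lie at 2.38 to 3.82 for Day1 versus 6h, at -3.73 to -0.07 for Day7 versus Day1 and at -1.27 to 3.04 for Day7 versus 6h, and none passed the limma threshold.

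Across the 12 libraries the tested members were sorted into 2 sets by likeness, which were not cleanly apart. Likeness was measured as the mean absolute difference of log2(value + 1) after each gene was centred on its own mean, so 0 would be an identical course. Pairs among C2, C3 and C4b differed by 0.71 to 1.01 (3 pairs), pairs among C8a, C8b, C9 and Cfi by 0.59 to 1.17 (6 pairs), and pairs between the sets by 1.05 to 2.14 (12 pairs). The sets were drawn after these values were seen, and their ranges overlap. C4b and C9, of different sets, differed by 1.05, less than C9 and Cfi of the same set at 1.17. Of all other tested genes, those nearest to C2 were Ccdc80 (0.32) and Rspo1 (0.35), a secreted matrix protein and a Wnt agonist. Nearest to C3 were the matrix proteoglycan gene Dcn (0.64) and Serping1 (0.68), the C1 inhibitor, and nearest to C4b were Serping1 (0.47) and Cdkn1c (0.64). Among the genes near C8a was Cml2 (0.42). C8b was nearest to Itih2 (0.38), a plasma inter-alpha-trypsin inhibitor chain, and to the liver lipid droplet gene Hsd17b13 (0.41). C9 was nearest to Cyp2d26 (0.56) and Itih2 (0.59), and Cfi to the plasma carboxypeptidase gene Cpb2 (0.59) and to Cdo1 (0.69). The median over all tested genes was 1.63 to 2.11, depending on the member. Cml2, Itih2, Hsd17b13, Cyp2d26 and Cpb2 were at 0 in every 6h library, as were C8a and C8b. All of these neighbours but Cml2 were also at 0 in Day7 replicates 2 and 3. Their small distances thus partly follow shared zeros.

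**Figure D3:**
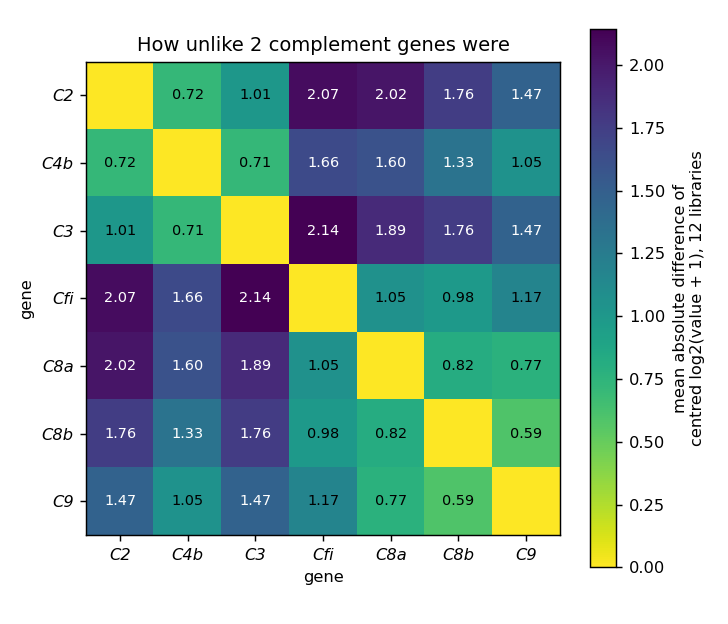
Mean absolute difference of centred log2(value + 1) over 12 libraries between each pair of the 7 tested complement genes, darker cells standing for less alike genes and the value printed in each cell. Pairs within C2, C3 and C4b lie at 0.71 to 1.01 and within C8a, C8b, C9 and Cfi at 0.59 to 1.17, against 1.05 to 2.14 between them.

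In 6h replicate 3 most genes of these sets stood apart. Its C3, C4b and C2 values were 729.8, 113.9 and 56.0, in the range of Day1 libraries, while albumin (Alb), C8a, C8b and Cfi were at 0 and C9 was at 1.93 (8 reads). The mean log2(value + 1) of 14 tested hepatocyte genes was 0.78 there and that of 12 tested stromal genes 5.42. Day7 replicate 1 had a hepatocyte mean of 9.76 and a stromal mean of 3.08, with Cfi at 177 and C2 at 8.46, while C3 at 376 and C4b at 102.8 were within the Day1 range. Over the groups the hepatocyte mean ran from 0.30 to 3.62 in 6h libraries, 5.54 to 7.35 in Day1 libraries and 2.84 to 9.76 in Day7 libraries. The stromal mean ran from 0.97 to 5.42, from 3.83 to 6.16 and from 1.199 to 3.53 at those times. Of 9 mesothelial markers, another cell type that makes early complement, 7 to 9 had reads at 6h, 9 at Day1 and 3 to 9 at Day7, with a mean log2 of 1.52 to 6.96, 5.29 to 7.23 and 0.35 to 3.30. The part of these cell type markers in the complement values was not tested.

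**Figure D4:**
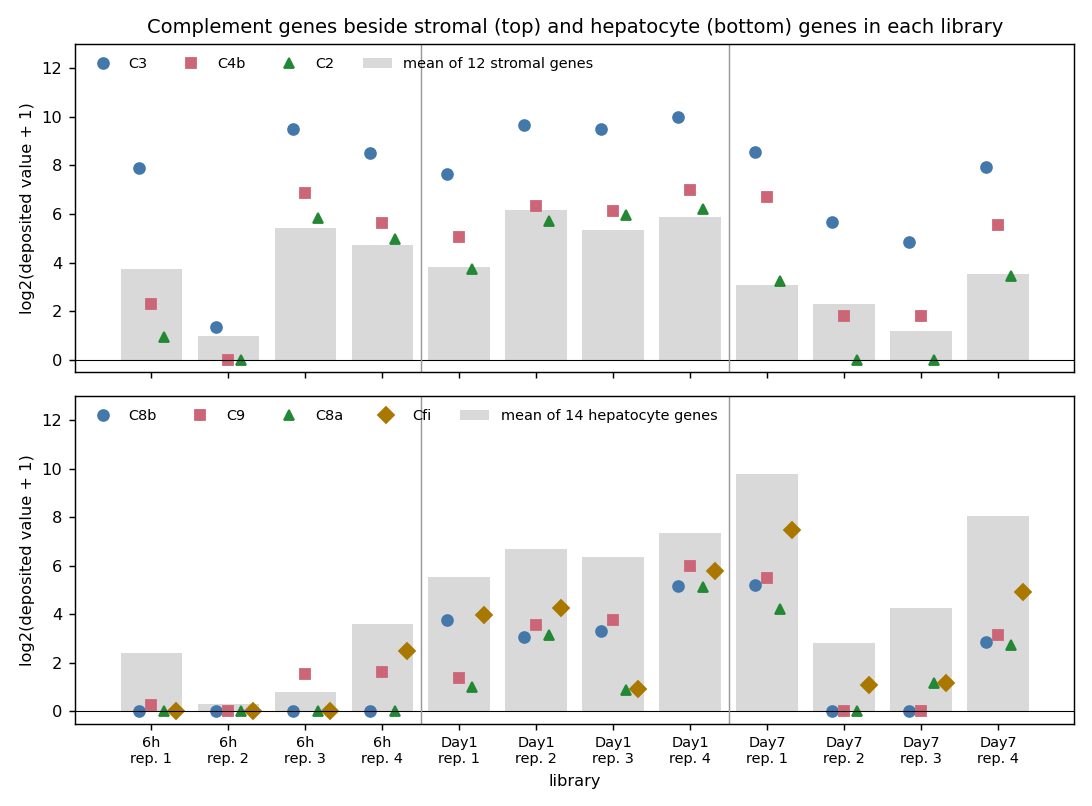
Log2(deposited value + 1) in each of the 12 libraries of C3, C4b and C2 beside the mean of 12 stromal genes (upper panel, grey bars) and of C8b, C9, C8a and Cfi beside the mean of 14 hepatocyte genes (lower panel, grey bars). In 6h replicate 3 the stromal mean is 5.42 and the hepatocyte mean 0.78, and C3 is high with C8a, C8b and Cfi at 0 and C9 at 1.93 before the log.

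The complement genes were also set against hepatocyte genes of the same library, and no difference passed the correction. For each member the mean hepatocyte log2 level was subtracted and the times compared by an exact two-sided permutation test over libraries, 21 tests in all with 4 libraries a group. For C2 the level relative to hepatocyte genes averaged -4.55 ± 1.51 in Day7 libraries and -1.08 ± 0.59 in Day1 libraries (SD, n = 4 each). For C4b it averaged -2.27 ± 0.87 in Day7 libraries and -0.38 ± 0.11 in Day1 libraries. Both gave an exact permutation p of 0.0286, the smallest that 4 against 4 allows, and the adjusted p was 0.12. Of the 21 tests 5 reached 0.0286 and the lowest adjusted p was 0.12, so none passed the correction. C8a and C8b had no read at 6h, so their relative level there is only the hepatocyte mean with its sign turned, and their differences from 6h follow that mean. Of the other 17 differences 16 were negative. Zeros enter these too, as Cfi had no read in 6h replicates 1 to 3, and C2, C8b and C9 had none in Day7 replicates 2 and 3. There the relative level is again only the hepatocyte mean with its sign turned. The count of negative signs, and the p of C2 and C9, thus partly follow that mean. C8a differed by -0.25 between Day7 and Day1 libraries on this relative scale (exact permutation p = 0.714), and Cfi by 0.19 (exact permutation p = 0.886). The 5 at the smallest p were C2 and C4b for Day7 versus Day1 and versus 6h, and C9 for Day7 versus 6h.

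The rest of the complement system was read from lists by role. Of the classical starter genes, 5 of 6 in the table were tested. The single call was C1s, the protease that cuts C4 and C2, lower at Day7 than at Day1, beside 3.59% of all genes. C1s stood at 23.2, 0.766, 1.85 and 14.3 in Day7 libraries, against 18.8, 78.2, 53.8 and 82.4 in Day1 libraries, with overlap in Day7 replicate 1. The Day7 minus Day1 difference was -2.98 (SE 0.89, limma adjusted p = 0.0496), and that call was lost without any 1 of Day1 replicates 2, 3 or 4 or Day7 replicates 2, 3 or 4, with adjusted p up to 0.14. It was also lost in edgeR (0.185), with the Y-linked term (0.42) and in further settings, and over all settings the adjusted p ran from 0.00567 to 0.42. C1qb, a recognition chain made by macrophages and the most abundant of this list, reached 855 in 6h replicate 1, where C3 was at 240.1 and C4b at 3.92, and stood between 1.14 and 94.1 in the other 11 libraries.

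Of the lectin route, 6 of 8 genes were tested, and 1 passed for Day7 versus 6h, beside 0.607% of all genes called higher. This was Mbl2, a sugar-binding plasma lectin of liver and the most abundant of its list. It stood at 258, 3.64, 31.5 and 57.9 in Day7 libraries, against 0, 0, 0 and 7.37 in 6h libraries, with Day7 replicate 2 below 6h replicate 4. The difference was 4.52 (SE 1.01, limma adjusted p = 0.0351). Mbl2 was at 0 in 6h replicates 1 to 3 and entered the test through later libraries, so nothing is read from this 1 call. The call was lost with all-read scaling (0.499), in edgeR (0.117), with a pseudocount of 4 (0.0764), with no filter (0.225), without the 2 libraries with the fewest genes (0.0602), and without any 1 of 6h replicates 1, 2 or 3, Day1 replicates 2 or 3 or Day7 replicates 1 or 4, with adjusted p up to 0.146, and over all settings the adjusted p ran from 0.00254 to 0.499. Among 4 tested membrane regulators 1 was called higher at Day7 than at Day1, beside 2.19% of all genes. This was Cd59a, which blocks C9 on host cells. It stood at 110.4, 214, 567 and 199 in Day7 libraries, against 23.1, 22.4, 15.4 and 14.1 in Day1 libraries, with no overlap. The difference was 3.56 (SE 0.75, limma adjusted p = 0.0178), and the call was lost with all-read scaling (0.172), with the Y-linked term (0.141, difference 3.29), in edgeR (0.0929, difference 3.66) and without any 1 of Day1 replicates 2, 3 or 4 or Day7 replicates 2 or 3, with adjusted p up to 0.0748. Platelet markers moved with it, all 8 read in each of these libraries. Their mean log2(value + 1) was 10.05 to 10.8 in Day7 libraries and 5.89 to 7.41 in Day1 libraries. Of the 8, 4 were called higher, beside 2.19% of all genes. Neutrophil markers, 2 of 6 tested called higher, had means of 2.78 to 5.46 and 0.05 to 2.09 in those groups. All 9 erythroid genes had positive differences, with 0 called. Stromal and mesothelial genes went the other way, with 6 of 12 and 7 of 9 called lower, beside 3.59% of all genes. These marker calls depended on the setting. For Day7 versus Day1 edgeR called 0 of all genes higher and 1 lower. Without Day1 replicate 2, 3 or 4, limma called 11, 3 and 19 of all genes lower and 3, 0 and 1 higher. With scaling to all reads, 10 stromal and 9 mesothelial genes were called lower, and 1 platelet and 0 neutrophil genes higher. The part of any of these markers in the result was not tested.

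None of the 5 tested terminal genes, the 10 soluble regulators or the 6 receptors passed limma in any comparison. The third C8 chain, C8g, was at 8.53, 23.5, 19.4 and 33.5 in Day1 libraries, against 0, 0.379, 0 and 0 in 6h libraries, and at 252, 1.15, 0 and 73.2 in Day7 libraries. Through its Day7 values it was the most abundant terminal gene over all libraries, whereas C9 had more reads at Day1, 2117 against 1932. Its Day1 minus 6h difference was 4.22 (SE 1.23, limma adjusted p = 0.196). Hc, the mouse C5 gene, was at 0, 5.06, 0.152 and 14.6 in Day1 libraries, against 0 in all 6h libraries, and at 34.3, 0, 0 and 1.66 in Day7 libraries. C7 had 3 reads in all, and both were named after their values were seen. Clu, a chaperone that also holds back the attack complex and the most abundant soluble regulator, stood at 491, 204, 420.0 and 3420 at 6h, 266, 1023, 509 and 903 at Day1, and 3396, 4293, 3400 and 1987 at Day7. Itgb2, the beta chain of complement receptors 3 and 4, stood at 175, 273, 184 and 238 in Day7 libraries, against 23.6, 29.8, 37.1 and 18.9 in Day1 libraries, without overlap (difference 2.97, SE 0.91, limma adjusted p = 0.0527).

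Genes of hepatocytes and of the liver acute phase response outside complement had members past the threshold. Of 14 tested hepatocyte genes, limma called 4 higher for Day1 versus 6h and 6 higher for Day7 versus 6h. Of 14 acute phase genes it called 7 and 5, beside 0.169% and 0.607% of all genes called higher. With a pseudocount of 4 or no filter, 0 of all genes were called for Day1 versus 6h. Scaling to all reads gave 12 hepatocyte and 10 acute phase calls there, but 0 of all genes for Day7 versus 6h. Among the hepatocyte markers, Hpd had no read in any 6h library and Apoh none in 3. Such genes entered the test through later libraries, so nothing is read from these counts against 6h. Hpx, the haem carrier, had values of 248, 575, 439 and 288 in Day1 libraries, against 0, 1.14, 0 and 25.4 in 6h libraries (difference 7.07, SE 1.18, limma adjusted p = 0.0119). Alb was at 369, 414, 454 and 1755 in Day1 libraries, against 38.6, 0.757, 0 and 31.8 in 6h libraries (difference 6.42, SE 1.34, limma adjusted p = 0.0441). Of 12 tested stromal genes, 6 were called lower for Day7 versus Day1, beside 3.59% of all genes. Fbln1 was among them at 24.5, 16.3, 1.85 and 51.5 in Day7 libraries, against 67.6, 466, 287 and 746 in Day1 libraries (difference -4.17, SE 0.99, limma adjusted p = 0.0268). In that comparison edgeR called 1 of all genes lower, so these stromal calls depended on the test. With the Y-linked term limma called 2, 0 and 104 of all genes for Day1 versus 6h, Day7 versus Day1 and Day7 versus 6h. Hepatocyte genes then had 0 calls for Day1 versus 6h, at a median difference of 4.63 against 4.85 without the term, and 3 calls for Day7 versus 6h. Stromal genes had 0 calls for Day7 versus Day1, at a median difference of -1.28 against -3.19 without it. That term also follows the stromal level itself, as libraries with Y-linked reads had the highest stromal means.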

How the data were processed

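Total RNA libraries of iChip-enriched blood, 4 each at 6h, Day1 and Day7 after burn/tenotomy, were grouped by sample title. The authors' deposited values are a scaled signal for each gene under the name CPM. The submitters' processing notes list STAR 2.7.10, HTSeq 2.0.1 and mm9, and annotation, strand setting and scaling step are not given in them. Columns do not sum to a fixed total, so they are not plain CPM, and every value was a whole multiple of the value of 1 read (0.0314 to 0.617 by library), 100% within 0.001 reads, which gave the recovered reads. Reads are scaled to an effective library size, and another choice of size moves all genes of a library together. A value of 3 reads lay between 0.0942 and 1.85 by library, which bounds what could be detected.

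The test was limma 3.58.1 (R 4.3.3), its variance trended on mean level, fitted to log2(value + 1) of all 12 libraries for 11211 genes that reached 1 in 4 or more libraries, with Benjamini-Hochberg adjustment over all of them at 0.05, two-sided. Of the 9 members, 7 were tested. Such fold changes understate low genes. Alternatives were pseudocounts of 0.25 and 4, no filter, scaling to all reads, count tests on recovered reads in edgeR 4.0.16 (quasi-likelihood) and in DESeq2 1.42.0, replicate number as a block, a term for Y-linked reads, each library left out, and the 2 libraries with the fewest genes left out. The limma fit alone was also run on simulated counts, and its outcome is not given here. Bounds against 0 used 3 reads over the group.

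Genes named are the 9 members, the called and the most abundant genes of each complement list, up to 3 genes of marker lists, further marker genes picked after their values were seen to show presence or absence (Col1a1, Pdgfra and Prrx1 among them), and the 2 genes nearest to each member, of which 1 is not reported here. Members, lists and alternatives were chosen with earlier results of these data known. Promoters came from RefSeq for GRCm38.p6 (5 of 9 members matched), not the authors' build, so positions and overlaps describe that build.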

Additional observations from a re-analysis of the deposited data

Results flagged for a closer look

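Within each time group every member was compared for a library standing apart from the other 3 by a gap to its nearest neighbour above Dixon's 95% critical share of the group's range, on the log2(value + 1) scale. Of 23 groups with any reads 3 met it. In all 3, a single library had reads and the others were at 0. The share is then 1 whatever the value read, so a chance rate of 1 in 20 does not apply. Nothing is read from that count. Cfi was at 4.68 in 6h replicate 4 (78 reads), and at 0 in the other 6h libraries. Cfb was at 0.966 in 6h replicate 3 (4 reads) and at 0.963 in Day7 replicate 1 (14 reads), and at 0 in the other libraries of those groups. On the deposited scale 5 met it, the other 2 being C6 at 32.5 in Day1 replicate 4 and Cfi at 177 in Day7 replicate 1.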

How the results depend on the processing

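The count of called members, 0 of 7 in each comparison, depended on scaling and test. For Day1 versus 6h it was 3 with scaling to all reads, 2 in DESeq2 and 0 to 1 with 1 library left out. For Day7 versus Day1 it was 4 with scaling to all reads, 1 in DESeq2, 1 with the replicate block (C2, limma adjusted p = 0.0408) and 0 to 2 with 1 library left out (2 without Day7 replicate 1, C2 and C8b). For Day7 versus 6h it was 3 in DESeq2 and 0 with any 1 library left out. Same-numbered libraries did not deviate together (r of -0.23 to 0.12 across genes), so the numbers are not taken to pair them, and the block changed no other count of called members, but C1s lost its call for Day7 versus Day1 (limma adjusted p = 0.0509).

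No difference of a member had passed in the main fit, so every direction that turned was of such a difference. For Day7 versus Day1, C3 and C4b passed with scaling to all reads (-4.56 and -3.94, limma adjusted p = 0.0204 and 0.0306) but turned with the Y-linked term. With the Y-linked term the Day7 minus Day1 difference was 0.10 for C3, 0.49 for C4b, 0.15 for C8a, 0.11 for C9 and 0.36 for Cfi, and the Day7 minus 6h difference 0.62 for C2 and 1.63 for C3. Cfi for Day7 versus Day1 was 0.12 with a pseudocount of 4, 1.42 in edgeR, 0.92 in DESeq2 and 0.77 without the 2 libraries with the fewest genes. C3 for Day7 versus 6h was 0.048 with a pseudocount of 0.25 and 0.94 without those 2 libraries. C4b for Day7 versus 6h was -0.42 with scaling to all reads, -0.19 in edgeR and -0.66 in DESeq2. With 1 library left out, ranges that crossed 0 were -1.24 to 0.36 (C8a) and -1.34 to 0.79 (Cfi) for Day7 versus Day1, and -1.89 to 0.83 (C3) and -0.97 to 1.31 (C4b) for Day7 versus 6h. The cause was not tested. The values of 3 reads, up to 1.85 in Day7 replicate 3, limit what a 0 says of C2, C8b or C9 there.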
